A study of Nicrophorus vespilloides with 24 samples.

Results

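The comparison of female with male heads after caring uses 8 of the 24 RNA libraries of the burying beetle *Nicrophorus vespilloides*, chosen by their labelled stage: 4 post-caring female and 4 post-caring male libraries. Each sex has 2 biparental libraries, from parents that cared with a mate, and 2 uniparental libraries, from parents that cared alone after the study removed their mate. Each library pools 10 beetles aged 21 days, all from a stock of Cornish origin, and nothing in the labels says whether the 2 libraries of a group came from separate broods. Post-caring parents were collected after they had cared for larvae on a carcass and then deserted it. By the study's methods, beetles of every treatment were then held singly, and heads were taken 24 h after removal. The labels name the tissue as brains, and the study's methods describe head tissue in which fat body and connective tissue accompany the brain. The 8 control libraries (mated beetles that never received a carcass) and the 8 caring libraries (parents taken from the carcass beside larvae), each with 4 of each sex, serve below as reference points. P-values measure the spread between these pools, which may in part be technical.

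In burying beetles both sexes can feed larvae, and either sex can do so alone. The clearest molecular difference between adult male and female insects is the yolk precursor vitellogenin, which the female fat body makes and the oocytes take up. Insect heads also hold mandibular and antennal muscle, compound eyes, cuticle and fat body around the brain, so a head library mixes the transcripts of all of these. In such pooled tissue, fewer cells of a type and less RNA per cell cannot be told apart.

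Totals of the 8 libraries ran from 14776987 to 23129177 counts, lower in the 4 biparental (up to 15583397) than in the 4 uniparental libraries (18817248 or more). The 10 most abundant loci took 29.5% to 34.1% of a library. The assembly was made without a genome, and its loci are single contigs or sets of contigs that overlap. Of the 11403 loci listed, 9648 were tested, and 825 of these carry a protein description of their own. The study gave descriptions to loci that it found to differ between caring and control beetles, in contrasts without the post-caring libraries. The gene lists below are built from those descriptions, so that they cover a selected share of the loci. Levels are CPM, which are counts scaled by library size, after TMM scaling, not corrected for length, and fold changes are log2 values, female minus male, averaged over both parenting types.

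After caring, 1853 of the 9648 loci differed between the sexes (19.2%) at an adjusted p-value under 0.05 (edgeR's quasi-likelihood test, p-values adjusted over all loci by Benjamini and Hochberg). Of these, 810 were higher in females (8.4%) and 1043 higher in males (10.8%). Without TMM scaling the balance turned, with 798 higher in females and 778 in males. Most differences were small, with 721 female-higher and 732 male-higher loci at a log2 size of 1 or less. The tails differed in kind. Beyond 4 on the log2 scale stood 21 female-higher loci, among them 9 vitellogenin loci, and 34 male-higher loci, of which 27 were sparse loci nearly absent from the control and caring libraries. All 4 female libraries lay above all 4 male libraries at 409 loci (4.24%), and all 4 male above all 4 female at 515 (5.34%). Among the 825 described loci tested, 67 were higher in females and 198 in males. The number of calls rests on the libraries included, with 1033 loci without uniparental female replicate 1 and 1094 without uniparental male replicate 2.

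**Figure D1:**
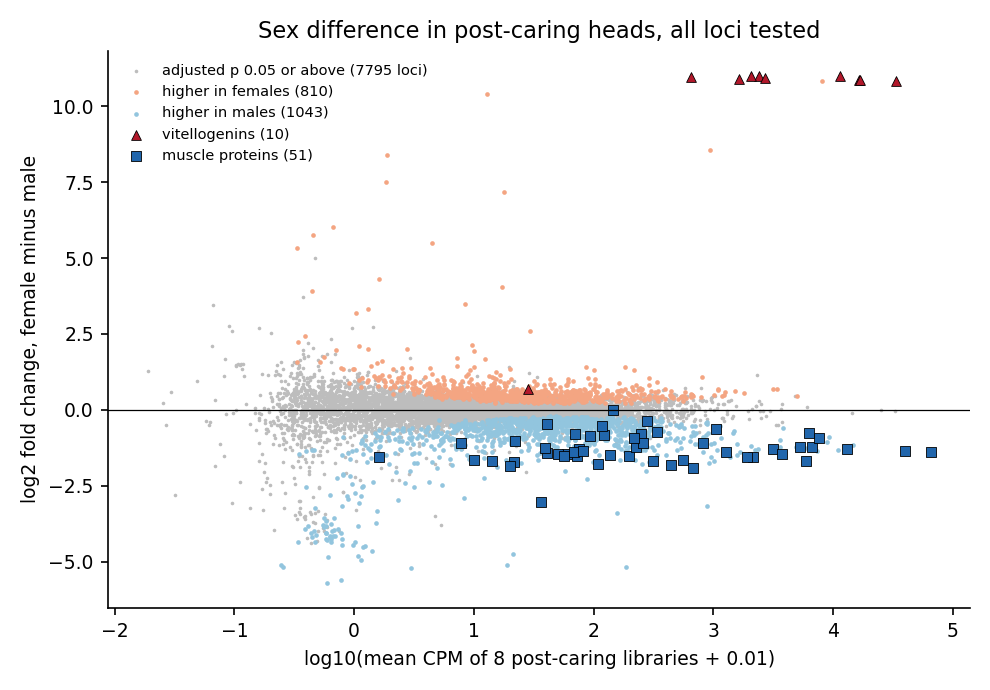
Log2 fold change (female minus male, vertical axis) of each of the 9648 loci against the mean CPM of the 8 post-caring libraries (log10 scale, horizontal axis). Triangles are the 10 vitellogenin loci, 9 of which stand near 11 at the top right, and squares are the 51 muscle protein loci, which lie at or below 0.

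Vitellogenin, the egg yolk precursor, showed the largest difference between the sexes. Of 10 loci described as vitellogenin, 9 were higher in females, beside 8.4% of all loci, with log2 fold changes from 10.84 to 10.99. The locus with the highest CPM of the 10, Locus_C911252, similar to a *Tribolium castaneum* vitellogenin, had 63949 and 96165 CPM in biparental females and 48685 and 57953 in uniparental females. In males it had 15.7 and 52.8 CPM when biparental and 49.5 and 24.2 when uniparental. Every female library was thus far above every male library, and the log2 fold change was 10.84 ± 1.05 (SE, adjusted p = 3.96e-06 in edgeR's quasi-likelihood test). Locus_C909574, whose best match is vitellogenin 2 of the congener *N. orbicollis*, ranged from 27621 to 42968 CPM in females and from 6.66 to 26.2 CPM in males. The exception was Locus_C852695, similar to vitellogenin-6 of an ant, with mean levels of 35.7 CPM in females and 21.4 in males and a log2 fold change of 0.67 ± 0.27 (SE, adjusted p = 0.0952 in edgeR's quasi-likelihood test). The 10 loci match 7 database proteins, and 4 of them match the same *Tribolium* protein, so that some may be pieces or close copies of one gene.

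Vitellogenin loci took 17.3% to 21.8% of all counts in the 4 female libraries and 0.00562% to 0.0167% in the 4 male libraries. Their summed level was 172523 and 232154 CPM in biparental and 143709 and 153405 CPM in uniparental females. In males the sums were 60.8, 174, 138 and 82.8 CPM. At the other stages the female sums ran from 222384 to 586940 CPM in controls and from 37297 to 84558 CPM in caring beetles, so that post-caring females lay above all caring females, and 3 of the 4 lay below all control females. Male sums ran from 53.3 to 244 CPM in caring and from 190 to 6590 CPM in control libraries. The 6590 CPM were in uniparental control male replicate 1, and the other control males had 190, 241 and 637 CPM. The sex difference at the 10 loci had a median of 10.92 after caring, 8.16 in controls and 9.55 during caring. The control median, and any change from it, includes that high male library, and its omission was not tested. No vitellogenin locus passed the test of a change in the sex difference from control or from caring. For the change from control, whose median over the 10 loci was 2.76, 9 of them had an unadjusted p under 0.05, beside 345 of the 9648 loci tested.

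A locus of a lipase followed the same sex pattern. Locus_C857706, similar to lysosomal acid lipase, which splits cholesteryl esters and triglycerides in mammals, had 1611, 3195, 1188 and 1503 CPM in the female libraries. The male libraries had 4.91, 7.96, 4.24 and 2.94 CPM, a log2 fold change of 8.54 ± 0.71 (SE, adjusted p = 1e-06 in edgeR's quasi-likelihood test). Locus_C909762, a hypothetical protein of the pine beetle *Dendroctonus ponderosae* singled out after its values were seen, ranged from 13506 to 18273 CPM in females and from 4.17 to 16.2 CPM in males. Locus_C869376, similar to the Pol polyprotein of a retrotransposon, a mobile element, had 28.1, 16.2, 42.2 and 15.9 CPM in females and at most 0.0816 CPM in males. All 4 male libraries held 3 counts or fewer there, and against a floor of 3 counts per library its mean female level was at least 146-fold higher. In caring females the same locus had at most 0.38 CPM.

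The fat body also makes storage and lipid carrier proteins, and the log2 fold changes of those listed ran from -3.38 to 0.55. Of 5 such loci, 1 was higher in females and 1 in males, beside 8.4% and 10.8% of all loci, and 3 did not pass the test. Of these 3, hexamerins 3 and 4 were barely detected, with mean levels of at most 0.148 CPM. The third, a retinoid- and fatty-acid binding protein, stood at 0.52 ± 0.21 (SE, adjusted p = 0.0864 in edgeR's quasi-likelihood test). With loci that share a blast match added, 3 of 9 were higher in females and 1 in males. Apolipophorin-III (Locus_C882058), an exchangeable lipid carrier of the haemolymph, averaged 2155 CPM in females and 1460 in males, with overlapping libraries and a log2 fold change of 0.55 ± 0.18 (SE, adjusted p = 0.0454 in edgeR's quasi-likelihood test). This call was lost under 9 of the 16 alternatives. Arylphorin (Locus_3250), a hexameric storage protein, had 23.2, 8.92, 27.3 and 61.4 CPM in females and 634, 72.4, 242 and 197 CPM in males. The groups did not overlap, and the log2 fold change was -3.38 ± 0.96 (SE, adjusted p = 0.0204 in the same edgeR test). That call was lost without biparental male replicate 1, biparental female replicate 2 or either uniparental female library.

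**Figure D2:**
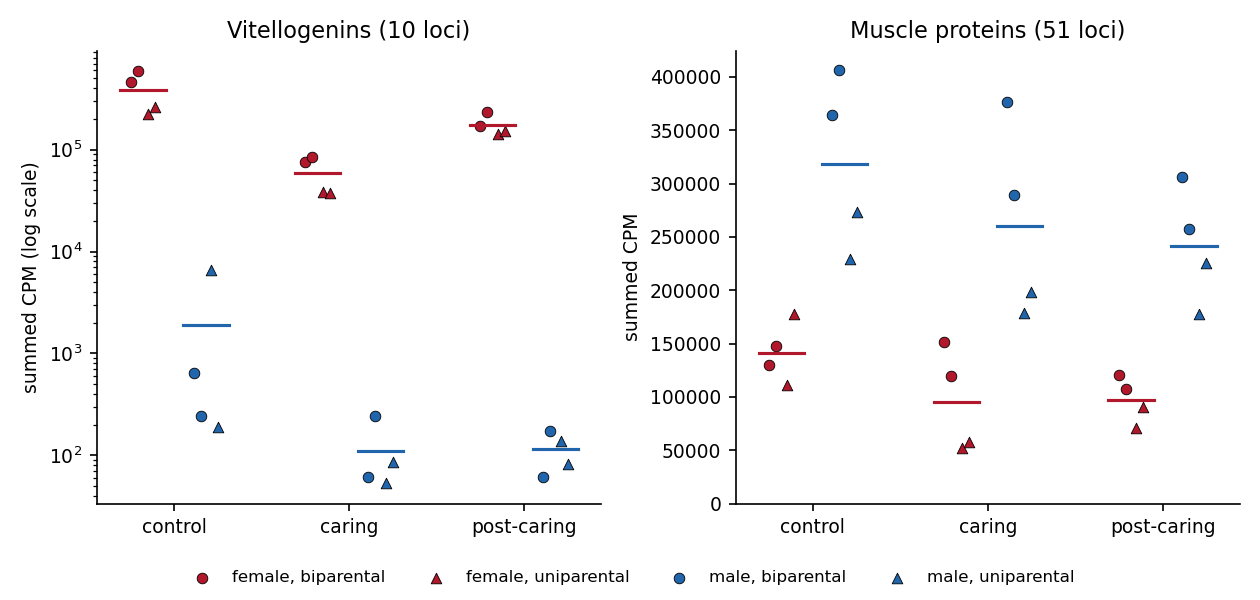
Summed CPM of the 10 vitellogenin loci (left, log scale) and the 51 muscle protein loci (right, linear scale from 0) in each of the 24 libraries by stage, with colour for sex, shape for parenting type and a bar at the mean of 4 libraries. Post-caring females hold 143709 to 232154 CPM of vitellogenin against 60.8 to 174 CPM in males, and 70781 to 120244 CPM of muscle transcripts against 177615 to 305782 CPM.

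Muscle protein transcripts were higher in male heads. Of 51 loci described as muscle proteins, 46 were higher in males, 0 in females, and 5 did not pass the test, against 10.8% of all loci tested that were higher in males. Since descriptions were given only to loci selected for a difference between caring and control beetles, the list is not a sample of all muscle genes. The median log2 fold change of the list was -1.36, beside 0.03 over all loci. The 4 male libraries stood above all 4 female libraries at 34 of the 51, beside 5.34% of all loci. These are not all separate genes, since 22 of the 51 match the same kettin protein. Summed over the list, biparental libraries had 120244 and 107061 CPM in females and 305782 and 257156 CPM in males. Uniparental libraries had 70781 and 90364 CPM in females and 177615 and 225895 CPM in males. The male excess was therefore present within each parenting type, while both sexes had higher sums in biparental than in uniparental libraries. The types also differed in library totals, and parenting type cannot be told apart from such differences between libraries.

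Thin and thick filament proteins were both higher in males. Actin-87E (Locus_C912026), a muscle actin in *Drosophila*, had 50883, 41692, 23684 and 29830 CPM in females and 121462, 104434, 64465 and 86547 CPM in males. Its log2 fold change was -1.39 ± 0.25 (SE, adjusted p = 0.000878 in edgeR's quasi-likelihood test). Muscle myosin heavy chain (Locus_C915460), the motor of the thick filament, averaged 22191 CPM in females and 57224 CPM in males, at -1.36 ± 0.21 (SE, adjusted p = 0.000269 in the same test). These were the 2 male-higher loci of highest CPM. Tropomyosin 1 stood at -1.54 and -1.55, flightin at -1.22, alpha actinin at -1.22, paramyosin at -1.28, and upheld, the *Drosophila* troponin T, at -1.3. The ryanodine receptor, the calcium release channel of the sarcoplasmic reticulum, ranged over its 5 loci from -1.65 to -0.92.

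Kettin, a giant elastic protein of the sarcomere, accounted for 22 of the 51 loci, all matching 1 *Tribolium* protein, and 21 of these were higher in males. They ranged from -3.03 to -0.46 with a median of -1.47, and may be pieces of 1 transcript or of close copies. The lowest, Locus_C829764, had 8.98, 9.98, 4.98 and 7.78 CPM in females and 83.9, 77.0, 57.5 and 42.3 CPM in males (log2 fold change -3.03 ± 0.24 SE, adjusted p = 6.82e-07 in edgeR's quasi-likelihood test). Biparental female replicate 2 was low at some but not all kettin loci, with 66.8 CPM at Locus_C912586 against 285 to 398 CPM in the other females. By database protein, 25 of the 28 matched were called. The 5 loci that did not pass were 2 of muscle-specific protein 300, troponin C 25D at -0.00, 1 kettin locus and 1 zormin locus.

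The direction at muscle loci was shared by the other stages, with 39 of 51 higher in males in controls (8.64% of all loci) and 48 during caring (12.5%). No muscle locus was higher in females at either stage, and medians were -0.97 in controls and -1.46 during caring. No muscle locus passed the test of a change in the sex difference between post-caring and either stage. For the change from control, whose list median was -0.31, 11 of the 51 had an unadjusted p under 0.05, beside 345 of the 9648 loci tested. For the change from caring, with a median of 0.24, these were 3 of the 51, beside 825 of all loci tested.

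Transcripts of the eye did not differ detectably. None of 6 photoreceptor loci (rhodopsin, arrestin, a TRP channel and others) passed the test, and 0 had groups that stood apart. Their median log2 fold change was -0.05, and it moved to -1.26 without biparental female replicate 1 and to 0.45 without uniparental male replicate 1, with 0 calls in each case. Summed photoreceptor levels were 9661, 1089, 6271 and 3671 CPM in females and 4449, 2854, 10008 and 3700 CPM in males. They thus varied more between the libraries of one sex than between the sexes, and biparental female replicate 2 was the lowest. Cuticle proteins summed to 268 to 750 CPM in females and 395 to 1388 CPM in males. The median over the list of 14 cuticle loci was -0.95. Only 1 of the 14 was higher in males, beside 10.8% of all loci, namely cuticular protein Ld-CP1v1 (Locus_26024). Its male libraries had 83.4, 13.3, 8.9 and 11 CPM and its female libraries 17.9, 22.4, 2.01 and 2.49 CPM, so that the sexes overlapped, and the call was lost under 7 alternatives.

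**Figure D3:**
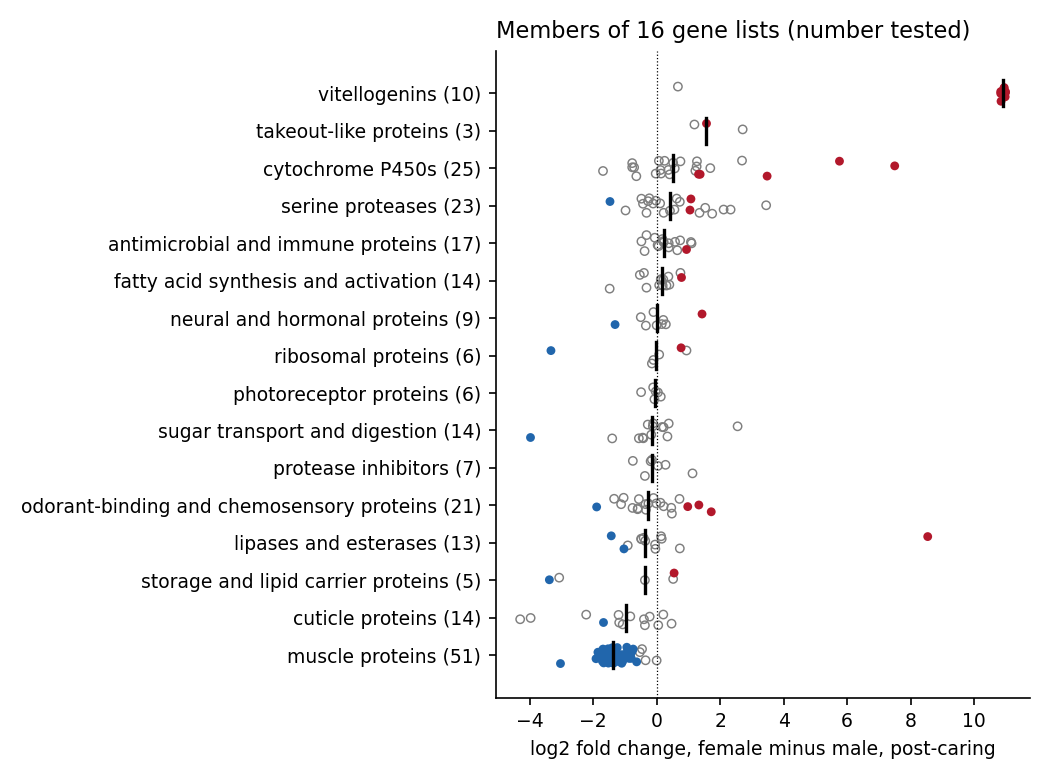
Log2 fold change after caring (horizontal axis, female minus male) of each tested member of 16 gene lists, with the number tested in parentheses and a bar at the list median. Filled points passed an adjusted p-value of 0.05 (red higher in females, blue higher in males) and open points did not, which shows muscle proteins gathered at a median of -1.36, 9 vitellogenin loci near 11, and most other lists spread around 0.

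Of 9 neural and hormonal loci tested, 1 was higher in females and 1 in males, with a median of -0.00, beside 8.4% and 10.8% of all loci. The female-higher locus was dimmed (Locus_27563), a bHLH transcription factor that specifies peptide-secreting neuroendocrine cells in *Drosophila*. It had 9.79, 9.27, 13.4 and 9.69 CPM in females and 3.51, 5.15, 3.59 and 3.35 CPM in males (log2 fold change 1.43 ± 0.15 SE, adjusted p = 9.54e-06 in edgeR's quasi-likelihood test). The male-higher locus was a kainate-type ionotropic glutamate receptor (Locus_C894382), a class of ligand-gated channel, with 12.1, 12.3, 21.9 and 20.8 CPM in females and 39.5, 31.9, 35.6 and 54.5 CPM in males. Its groups stood apart at -1.31 ± 0.14 (SE, adjusted p = 1.18e-05 in the same test). Loci similar to an insulin-related peptide, nitric oxide synthase and 2 aromatic amino acid decarboxylases, enzymes of amine transmitter synthesis, did not pass, at -0.00, -0.10, 0.21 and -0.34.

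Cytochrome P450s are a family of oxidases that process hormones, odorants and toxins. They were higher in females at 5 of 25 tested loci and in males at 0, beside 8.4% and 10.8% of all loci. The 5 calls are close to the 19.2% of all loci called in either direction, and the list median was 0.52. With loci that share a blast match added, 6 of 40 were higher in females and 0 in males, with a median of 0.31. Under the likelihood ratio test 7 were higher in females and 1 in males. Locus_5594, annotated as a pheromone-degrading enzyme, had 13.4, 13.4, 21.5 and 13.4 CPM in females and 1.68, 1.1, 1.43 and 1.24 CPM in males, at 3.48 ± 0.31 (SE, adjusted p = 1.86e-06 in edgeR's quasi-likelihood test). Locus_19412, a cytochrome P450-like protein, had 1.92, 2.69, 6.23 and 3.78 CPM in females and 3 counts or fewer in each male library, which makes its female mean at least 20.8-fold higher. Locus_29626, with the same annotation as Locus_5594, ranged from 0.356 to 1.49 CPM in females and was at least 5.01-fold higher by the same floor. The remaining 2 were a P450 26B1-like locus (Locus_42810) at 1.32 and Locus_C910940 at 1.37, whose groups overlapped.

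Odorant-binding and chemosensory proteins, which carry odours to receptors or are those receptors, showed calls in both directions, with 3 higher in females and 1 in males of 21, 4 in all, which is close to the 19.2% of all loci called. Locus_55249, odorant-binding protein 1, had 8.55 to 13.3 CPM in females and 4.1, 0.549, 4.16 and 5.1 CPM in males, with biparental male replicate 2 the lowest. Locus_C895814, odorant-binding protein 3, had 94.7, 198, 144 and 139 CPM in females and 85.6, 60.4, 47.2 and 42.6 CPM in males (1.33 ± 0.38 SE, adjusted p = 0.0228 in edgeR's quasi-likelihood test). Locus_7343, odorant binding protein 5, was higher in males at -1.89 ± 0.6 (SE, adjusted p = 0.0352 in the same test), with overlapping groups. The calls at these 3 loci were lost under 4, 5 and 7 alternatives, and that at the third female-higher locus, odorant receptor 64 (Locus_41970), under 3.

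The remaining lists had 0 to 3 calls each, to be read beside the 19.2% of all loci called. Serine proteases, which act in digestion and in haemolymph cascades, had 2 loci higher in females and 1 in males of 23. The abundant trypsin-like Locus_C855163 had 1571, 887, 1014 and 916 CPM in females and 608, 408, 587 and 465 CPM in males (1.08 ± 0.25 SE, adjusted p = 0.00651 in edgeR's quasi-likelihood test), with no overlap. Antimicrobial and immune proteins gave 1 call of 17, a peptidoglycan recognition protein (Locus_25807) that binds bacterial cell wall, at 0.92 with overlapping groups, a call lost under 8 alternatives. Lipases and esterases gave 1 female-higher locus, the lipase above, and 2 male-higher loci of 13. Takeout-like proteins, small haemolymph carriers of hydrophobic ligands, gave 1 call of 3, at no more than 1.2 CPM (Locus_3293), which was lost under 7 alternatives. Fatty acid synthesis and activation gave 1 of 14, sugar transport and digestion 1 male-higher of 14, and protease inhibitors 0 of 7, where the lowest adjusted p was 0.327 (Locus_44233). Of 6 ribosomal protein loci, L18A (Locus_18305) was higher in females at 0.77 ± 0.14 (SE, adjusted p = 0.00112 in edgeR's quasi-likelihood test), and the S25 locus that was higher in males is described next to the sparse loci below.

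Other male-higher loci rested in part on 1 library. Locus_C888540, similar to a hypothetical *Tribolium* protein, had 10.3, 5.1, 8.74 and 8.67 CPM in females and 1122, 45, 137 and 165 CPM in males. The high value was biparental male replicate 1. The same library was highest at Locus_6650, a putative glycine-rich protein, with 90.6 CPM against 3.5, 24.2 and 29.7 CPM in the other males and 0.558 to 2.11 CPM in females. The groups did not overlap at either locus, with log2 fold changes of -5.18 ± 1.22 and -5.1 ± 1.14 (SE, adjusted p = 0.0071 and 0.00496 in edgeR's quasi-likelihood test). Without that library, the call was lost at Locus_6650, at arylphorin and at a brain chitinase locus (Locus_74494), an enzyme that breaks down chitin, where this male library had 4.1 CPM and the other males 0.961 to 1.55. The call at Locus_C888540 was lost without uniparental female replicate 1. Glucose dehydrogenase (Locus_38423), a glucose-oxidising enzyme, was low in all post-caring libraries, at 0 to 0.283 CPM in females and 0.293 to 2.13 CPM in males (-3.99 ± 0.68 SE, adjusted p = 0.000786 in the same test). During caring it was higher, at 3.71 to 6.64 CPM in females and 3.25 to 8.09 CPM in males. The sexes did not differ detectably then (-0.23 ± 0.34 SE, adjusted p = 0.674 in the same test). The change in the sex difference from caring to post-caring did not pass (-3.76 ± 0.79 SE, adjusted p = 0.0562 in the same test). In controls this locus was also higher in males (-4.5 ± 1.19 SE, adjusted p = 0.0192 in the same test). A further male-higher locus with no overlap was Locus_5884, an ankyrin repeat protein, with 0.354 to 4.62 CPM in females and 5.15 to 13.8 CPM in males, at -2.48 ± 0.26 (SE, adjusted p = 7.91e-06 in the same test).

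Sparse loci made up much of the male-higher tail. By a rule set after the data were seen, 92 tested loci held 20 or fewer counts in total over the 16 control and caring libraries. Of these, 47 were higher in males after caring and 0 in females, beside 10.8% and 8.4% of all loci. The median log2 fold change of the 92 was -3.71. With so few counts at the other stages, these loci passed the filter on low counts mainly through the post-caring libraries where they were high, so their direction is partly fixed by that choice and is a description. Their summed level was 0.248 and 3.54 CPM in biparental females, 18.6 and 65.4 CPM in uniparental females, 44.4 and 55.5 CPM in biparental males, and 87.9 and 193 CPM in uniparental males. Within each type the male libraries were the higher ones, and within each sex the uniparental ones, and uniparental female replicate 2 overlapped the male range. In the biparental females 73 of the 92 loci had no counts at all. The summed level was at most 10.4 CPM in any control library and 0.211 CPM in any caring library. Only 3 of the 92 have a description, and 2 of these name an arachnid protein as best match, ribosomal protein S25 of the tick *Ixodes scapularis* (Locus_C873388) and cytochrome b of the dust mite *Dermatophagoides pteronyssinus* (Locus_74517). Locus_38273, outside the 92, is also described by a tick protein, translation elongation factor 1 alpha, and had 0, 0, 0.788 and 4.0 CPM in females and 3.0, 4.81, 3.75 and 7.27 CPM in males. Burying beetles carry mites, and the part of mite RNA in these loci was not tested. Leaving out the 92 loci left 996 male-higher calls.

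**Figure D4:**
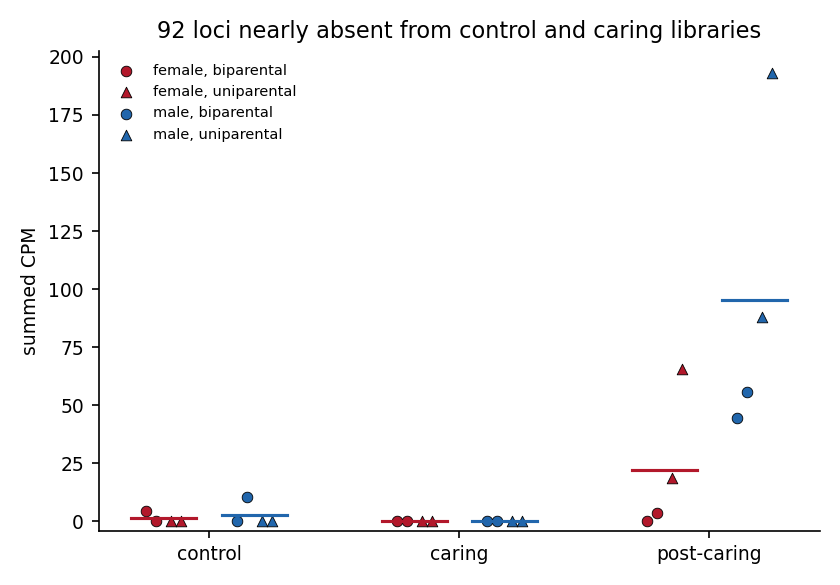
Summed CPM of the 92 loci that held 20 or fewer counts over the 16 control and caring libraries, in each of the 24 libraries by stage, with colour for sex, shape for parenting type and a bar at the mean of 4 libraries. Post-caring males hold 44.4 to 193 CPM and post-caring females 0.248 to 65.4 CPM.

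The sex difference was also tested within each parenting type. Among biparental libraries 366 loci were higher in females (3.79% of those tested) and 610 in males (6.32%), 10.1% together. Among uniparental libraries these were 156 (1.62%) and 388 (4.02%), 5.64% together. The lists have no library in common. In the same direction, 331 loci were called in both, which is 33.9% of the biparental and 60.8% of the uniparental list, and 0 were called in opposite directions. Vitellogenin loci were called in both types at 9 of 10, and muscle loci at 40 and 32 of 51. The difference between the types itself was called at 0 loci by edgeR's quasi-likelihood test, with 669 at an unadjusted p under 0.05. DESeq2 called 1, Locus_3881, which has no description and was singled out after its values were seen. It had 33.5 and 39.5 CPM in biparental males, 58.4 and 59.3 CPM in uniparental males, and 39.6 to 42.7 CPM in females. This count of 0 depended on biparental female replicate 1. Without that library 166 loci were called, 148 of them with the sex difference higher in females among uniparental than biparental beetles. With 2 libraries for each sex and type, the smaller within-type counts do not show that the types differ.

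Compared with beetles that had not cared, the sexes differed at many of the same loci. Control beetles differed between the sexes at 1473 loci (15.3%), 6.62% higher in females and 8.64% in males, and 1018 of the 1473 were called in the same direction after caring and 0 in the opposite direction. This is 69.1% of the control list and 54.9% of the post-caring list. Of the 1018, 381 were higher in females and 637 in males. At all 3 stages 827 loci were called in the same direction, and 457 loci were called after caring alone. The change in the sex difference from control to post-caring was called at 0 loci by edgeR's quasi-likelihood test, by the likelihood ratio test and by DESeq2, with 345 loci at an unadjusted p under 0.05 in the first of these. Without biparental female replicate 1 the count was 47, of which 46 had a lower female-minus-male value after caring than in controls.

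Compared with beetles that were caring, the sex difference changed at 35 loci (0.363%), of which 21 had a higher and 14 a lower female-minus-male value after caring. At 21 of the 35 the sexes differed during caring and not after it, at 12 after caring and not during it, and at 2 at both stages. One of these last, a luciferase-like locus (Locus_1370), turned direction, from -0.76 during caring to 0.78 after it, both past the threshold. Its post-caring call was lost without biparental female replicate 1, uniparental female replicate 1 or uniparental male replicate 2. The traffic jam locus (Locus_1200), a Maf transcription factor needed in the *Drosophila* gonad, had 25.3, 26.5, 46.4 and 32.6 CPM in post-caring females and 2.27, 1.51, 2.53 and 1.44 CPM in post-caring males. During caring, females had 6.41 to 10.7 CPM and males 1.6 to 2.42 CPM, and in controls females had 26.2 to 38.7 CPM and males 1.5 to 3.15 CPM. Males thus varied little across stages, and the female level was low during caring. The log2 fold change between the sexes was 4.03 ± 0.21 after and 1.99 during caring, a change of 2.05 ± 0.3 (SE, adjusted p = 0.0107 in edgeR's quasi-likelihood test).

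The same course was seen at 2 further loci. Dimmed had 9.27 to 13.4 CPM in post-caring, 3.21 to 4.08 CPM in caring and 11.6 to 15.4 CPM in control females, against 2.25 to 5.53 CPM in males of every stage. Its sex difference changed by 1.31 ± 0.22 from caring (SE, adjusted p = 0.0118 in edgeR's quasi-likelihood test). The alpha subunit of the translocon-associated protein complex (Locus_16717), which helps secreted proteins enter the endoplasmic reticulum, had 144, 134, 125 and 99.3 CPM in post-caring females and 53.3, 67.0, 35.3 and 38.3 CPM in post-caring males. Caring females had 27.3 to 42.3 CPM and caring males 29.1 to 61.3 CPM, and the change was 1.6 ± 0.24 (SE, adjusted p = 0.0107 in the same test).

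At the other 3 loci named by rank, the sexes differed during caring but not after it. A luciferase-like locus (Locus_15119), of the enzyme family that joins fatty acids to coenzyme A, had 3.84 to 9.92 CPM in post-caring females and 3.37 to 8.69 CPM in post-caring males. During caring it had 0.321 to 1.18 CPM in females and 2.0 to 3.77 CPM in males, and the change was 2.29 ± 0.34 (SE, adjusted p = 0.0107 in edgeR's quasi-likelihood test). Locus_C906608, similar to *Drosophila* CG7675, went from 0.0641 to 0.645 CPM in caring females to 0.867 to 5.8 CPM in post-caring females, with 0.586 to 2.37 CPM in post-caring males. Locus_6927, a hypothetical protein, moved the other way. It had 77 to 125 CPM in caring females against 35.1 to 43.1 CPM in caring males, and 23.1 to 34.3 CPM against 24.9 to 37.3 CPM after caring (change -1.59 ± 0.23 SE, adjusted p = 0.0107 in the same test). The number of such loci depended on the test and the scaling. The likelihood ratio test called 114, DESeq2 102, and totals without TMM scaling 107, of which 95 had a lower female-minus-male value after caring and 12 a higher one.

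**Figure D5:**
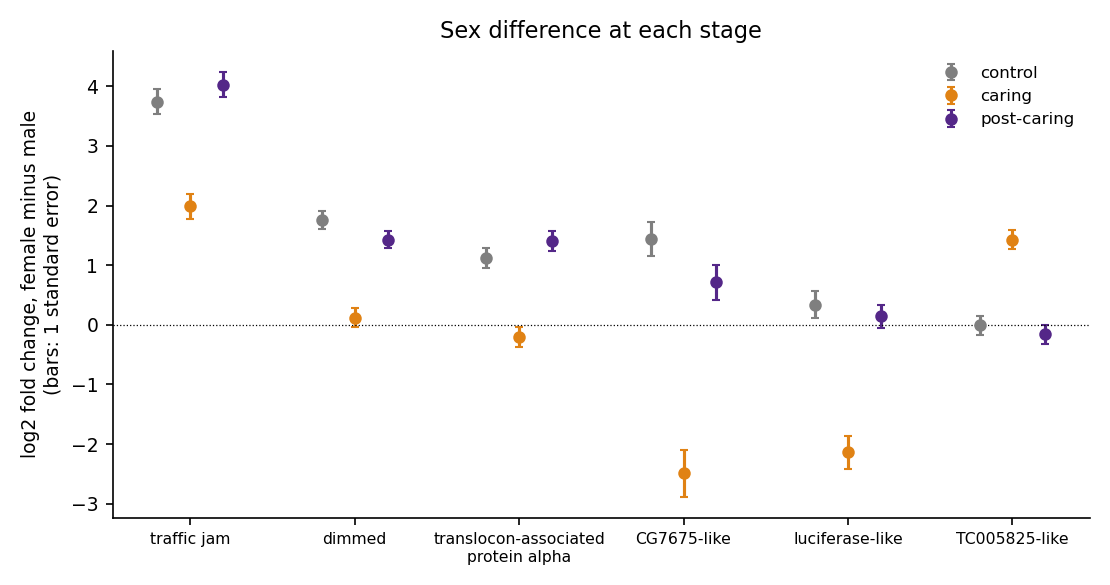
Log2 fold change between the sexes (female minus male, vertical axis, bars are 1 standard error) in control, caring and post-caring libraries for 6 loci whose sex difference changed from caring to post-caring. At traffic jam the value is 1.99 during caring and 4.03 after it, and at the TC005825-like locus (Locus_6927) it goes from 1.43 to -0.16.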

How the data were processed

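RNA from pooled heads of *N. vespilloides* was sequenced in 24 libraries, grouped by their labelled titles. The authors trimmed reads, assembled them with SOAPdenovo-trans, kept those contigs with a blast match to an arthropod, to proteins or otherwise to nucleotides, and deposited RSEM's expected counts for each locus, with no normalization and no pooling of libraries. The submitters' processing notes name Trimmomatic 0.30, Bowtie2 and RSEM. Between 33.3% and 48.9% of a library's values were not whole. In the post-caring libraries this was 35.1% to 37.3% in biparental and 43.6% to 47.2% in uniparental ones.

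From these, values were rounded to whole counts and fitted in edgeR 4.0.16 (R 4.3.3) with TMM scaling, a mean for each of the 12 groups and 12 residual degrees of freedom. Low loci, 1755 in number, were removed by filterByExpr at a minimum count of 10. The female minus male contrast was averaged over parenting types, so that type acts as a block, and tested with the quasi-likelihood test. Benjamini-Hochberg adjustment covered all 9648 loci. The standard error is the fold change divided by the square root of F. Where all libraries of a sex held 3 counts or fewer, a fold is a limit against 3 counts per library. Variance between libraries of a group exceeded counting noise (chi-square per degree of freedom 30 to 74.9), so the number of libraries limits precision. Scripts were tested on simulated data.

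Alternatives were the likelihood ratio test, DESeq2 1.42.0, no filter, RLE scaling, a replicate block, a prior count of 2, the 8 post-caring libraries alone and each of them left out. Totals without TMM scaling, the omission of sparse loci and lists extended by shared blast match were added after seeing the data. The members, gene lists and rules were chosen with earlier results of these data known.

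Named loci were the 6 highest and 6 lowest log2 fold changes among calls, the 12 highest and 12 lowest with a named protein, up to 4 calls per list (otherwise the lowest p), up to 5 loci per test of a difference, and the 2 calls of highest CPM in each direction. Lists were matched to descriptions in the study's supplementary table, read for names only. No blast accession in the files matched the reference gene table. Sequences were not used here.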

Additional observations from a re-analysis of the deposited data

Results flagged for a closer look

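At 59 named loci, the 4 libraries of each sex were checked for a value far from the other 3 on the log2 scale by Dixon's criterion at the 95% level. Chance flags about 1 in 20 such groups, and 10 of 118 were flagged. In 5 of these the level was near the limit of detection. Locus_C901226 had 0.248 CPM in biparental female replicate 1 and 0 in the other females, Locus_37857 had 0.0444 CPM in uniparental female replicate 2, and Locus_C833822 had 0.0358 CPM in uniparental female replicate 1. The retrotransposon-like Locus_C869376 had 0.0816 CPM in uniparental male replicate 1 and Locus_29626 had 0.0515 CPM in uniparental male replicate 2, with 0 in the other males. Odorant-binding protein 1 (Locus_55249) had 0.549 CPM in biparental male replicate 2 against 4.1 to 5.1 CPM in the other males. The kettin locus Locus_C905732 had 47.3 CPM in biparental female replicate 2 against 218 to 283 CPM. Locus_5594 had 21.5 CPM in uniparental female replicate 1 against 13.4 CPM in each of the others. Dimmed (Locus_27563) had 13.4 CPM in uniparental female replicate 1 against 9.27 to 9.79 CPM, and 5.15 CPM in biparental male replicate 2 against 3.35 to 3.59 CPM.

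The sex difference after caring differed from that during caring, by the test of the difference itself, at 8 named loci. The log2 change was -1.59 at Locus_6927, 2.05 at traffic jam (Locus_1200), 2.29 at the luciferase-like Locus_15119, 1.6 at the translocon-associated protein (Locus_16717), 3.21 at Locus_C906608, 1.31 at dimmed (Locus_27563), 1.04 at ribosomal protein L18A (Locus_18305) and 1.54 at the luciferase-like Locus_1370.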

How the results depend on the processing

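Of the 54 named loci that passed the threshold, 32 passed under each of the 16 alternatives and 22 lost their call under at least 1. Direction changed only at 2 loci that had not passed, to 0.18 at Locus_24537 without biparental male replicate 1 (-1.63 to 0.18 with each library left out) and to -0.07 at Locus_15119 without uniparental female replicate 1 (-0.07 to 0.29). The call of 9 vitellogenin loci stayed at 9 with each library left out, and that of 46 muscle loci ran from 43 to 47. The 1018 loci shared with the control list were 1144 with the likelihood ratio test and 1001 with RLE.

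With only the 8 post-caring libraries, the biparental count was 436, the uniparental 203 and the female-higher count 518. The count of changes from caring was 114 with the likelihood ratio test, 102 with DESeq2 and 107 without TMM scaling. DESeq2 gave 1 locus for the difference between types. With each post-caring library left out in turn, the post-caring count ran from 1033 to 1671, with 367 to 685 higher in females and 643 to 1048 in males. The biparental count ran from 392 to 1032, the uniparental from 85 to 607, the difference between types from 0 to 166, the change from control from 0 to 47 and the change from caring from 16 to 37. Female-higher P450s ran from 4 to 6. The cause was not tested.

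Over all loci, libraries with the same replicate number showed little common deviation (correlation 0.07 in biparental and 0.06 in uniparental beetles). With a single contrast per type, this cannot decide whether the numbers pair samples. With the replicate number as a block, the post-caring count was 1821 and the change from caring 50, and female-higher P450s numbered 8. Extending the lists by shared blast match gave 55 of 65 muscle loci higher in males, and leaving out the sparse loci left 996 male-higher calls.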

Other observations

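Outside the gene lists, 49 loci with a named protein were called, 17 higher in females and 32 in males. Of all loci tested, 8.4% were higher in females and 10.8% in males. The number of such loci tested was not counted, so no share of their own can be set beside this. Those named here were picked after their values were seen. Among male-higher loci were Limpet (Locus_C904388), a LIM domain protein, with means of 489 CPM in females and 1418 CPM in males, paxillin (Locus_C891564), an adaptor of cell attachment sites, with 45.4 and 116 CPM, and transmembrane protein 38A (Locus_C907684), a cation channel of the sarcoplasmic reticulum in mammals, with 464 and 1190 CPM. The extracellular matrix proteins laminin beta-1 (Locus_5203) and thrombospondin (Locus_6915) were also higher in males, at -1.0 and -0.77 on the log2 scale. Both loci of kayak, the *Drosophila* Fos transcription factor, were higher in males, at -1.0 (Locus_C881166) and -0.91 (Locus_C851211). The adjusted p-values of these loci were between 1.86e-06 and 0.0214 in edgeR's quasi-likelihood test.

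Among female-higher loci were a monocarboxylate transporter (Locus_65660), with 15.6 ± 1.5 CPM in females and 3.62 ± 0.847 CPM in males (SD, 4 libraries each), and nuclear protein 1 (Locus_C845605), a small stress-responsive protein in mammals, with 309 and 127 CPM. The beta subunit of the signal sequence receptor (Locus_7538), which belongs to the same complex as the translocon-associated alpha subunit, had 89.1 CPM in females and 46.5 CPM in males, a log2 difference of 0.95 with an adjusted p of 0.00191 in edgeR's quasi-likelihood test.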
